A study of Arabidopsis thaliana with 8 samples.

Results

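Of the 5513 regions of m6A-bound RNA found in both wild-type leaf libraries of Arabidopsis thaliana, 357 were also found in both libraries of plants in which an embryo promoter drives the m6A methyltransferase MTA. These 357 kept regions are described here. Peaks of the 2 wild-type lists that shared at least 1 bp on the same strand were merged, and a merged region counted where both lists contributed to it. A region was kept when it shared at least 1 bp on that strand with a peak of mta replicate 1 and with a peak of mta replicate 2. Another 470 regions met 1 of the mta lists, and 4686 met neither. The kept regions were thus chosen by the measured presence of mta peaks, which is described without a test and supports nothing here.

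The peaks came from miCLIP-seq, in which an antibody against N6-methyladenosine (m6A) is crosslinked to poly(A)+ RNA with ultraviolet light and the bound RNA is sequenced. One genotype was ABI3:MTA, called mta here, in which MTA is expressed from the ABI3 promoter, which is active in embryos. The other was wild type (WT), and both are of ecotype Col-0. For both, leaves 5 to 9 were collected 4 h after first light from 4-week-old plants in soil, under days of 16 h light and 8 h dark at 22 °C. Each replicate started from 7 µg of poly(A)+ RNA. Each genotype had 2 bound libraries among the 8 libraries of the series, and the unbound supernatants were not analysed here. The labels do not say whether replicates came from separate plants, so any p-value measures only the spread between these libraries, which may be technical.

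The lists held 1934 and 2092 peaks in mta replicates 1 and 2, against 8973 and 6584 in WT replicates 1 and 2. They give a position, a strand and the authors' own score for each peak, whose scale is not stated, and no read counts, so the depth of each library and the RNA level of each gene are unknown. No gene of the leaf photosynthesis list (7 genes) or of the embryo and seed list (4 genes) had a peak in any library. Since a peak list gives no RNA level, this neither bears out nor contradicts the tissue label.

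In plants m6A is added to messenger RNA by a nuclear methyltransferase complex whose catalytic subunits are MTA and MTB, together with FIP37, VIR and HAKAI. The mark lies mostly near the stop codon and in the 3' untranslated region (3' UTR), is bound by YTH-domain proteins of the ECT family and can be removed by ALKBH demethylases. Loss of MTA stops embryo development, and driving MTA from the ABI3 promoter lets plants pass that stage while later tissues have little of the enzyme. A pair of short sequence patterns is discussed for plant m6A. One is RRACH, the general consensus, which covers the 12 pentamers that have a pair of purines followed by ACA, by ACC or by ACU, such as GGACU. The other is URUAY, reported near plant m6A, which covers the 4 pentamers that have UAUA or else UGUA followed by a pyrimidine, such as UGUAU.

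The kept regions are shown first by the sequence at their motifs, because the share of RRACH is one of the measures in which they differ from the other WT regions. Each run is 30 bases of the RefSeq TAIR10.1 genome, read on the strand of the region and written as RNA, with the motif in capitals. In 4 regions the RRACH match nearest to the region midpoint was as follows.

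AT1G55090, chr1:20558344-20558373, plus strand: gaaguacgucuuAGACUgauauugcacuuu
NRPB10, chr1:3863879-3863908, plus strand: uguaugugguguAGACCcuucaacuccauc
SPDS3, chr5:21537684-21537713, plus strand: ucaaacuuuguaGAACUcuugaagaggaau
UBC4, chr5:16538263-16538292, minus strand: agcuuugguaggGGACUuguuuuauuguau

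The RRACH matches of AT1G55090 and NRPB10 were centred 3 and 2 nt before the midpoint of their region, and those of SPDS3 and UBC4 18 and 40 nt before it. In the next set URUAY is capitalised. SDH8 had no RRACH within 50 nt of its midpoint, and in the other 3 regions the nearest URUAY lay closer to the midpoint than the nearest RRACH or about as close.

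SDH8, chr2:19042381-19042410, minus strand: uaguucuugcagUGUAUaagcucaauaaug
AT1G78140, chr1:29401900-29401929, minus strand: cucuuuaaaguaUAUAUacuuuucuguaaa
LCV2, chr1:16228624-16228653, minus strand: cuguauggccucUAUACcguguaaagauag
AT1G01230, chr1:99093-99122, plus strand: uaagcgaacauaUAUAUguguaaauguuca

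One further sequence is shown because it occurs 4 times. Its first copy belongs to the kept region beside LpxC2 (AT1G24880), annotated as a deacetylase, and the RRACH match is capitalised.

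LpxC2, chr1:8777980-8778009, plus strand: uaugguuaaaauAGACUauuauuaaaauuc

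The 4 kept regions with this sequence lay at chr1:8777944-8778061, chr1:8800472-8800589, chr1:8814850-8814967 and chr1:8829228-8829345. The first lay outside the transcript of LpxC2, the second in no annotated exon, and the last 2 in the noncoding genes AT1G25098 and AT1G25175. All 4 were 118 bp wide, scored 44 in mta replicate 1, and scored 75 and 50 in WT replicates 1 and 2. In mta replicate 2 the scores differed, with 56 beside LpxC2, 48 in the region in no annotated exon and 76 in AT1G25175. The central 31 nt of the 4 regions are identical, so reads confined to that stretch cannot be told apart and the 4 regions may be 1. Whether the regions are identical over their full width was not examined. Of the kept regions, 11 of 357 (3.08%, 95% Clopper-Pearson interval 1.55 to 5.45%) had another exact copy of their central 31 nt in the genome, against 75 of 4686 regions met by neither mta list (1.60%, interval 1.26 to 2.00%). All intervals cover counting error only and treat regions as independent, which regions of related genes are not.

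The 357 kept regions were 6.48% of the WT regions (interval 5.84 to 7.16%). They lay in 349 genes, which is 6.77% of the 5153 genes with a WT region. The mta replicates met 634 (11.5%) and 550 (9.98%) of the WT regions. Kept regions held 374 of the 1934 peaks of mta replicate 1 (19.3%) and 371 of the 2092 of mta replicate 2 (17.7%), against 382 of the 8973 of WT replicate 1 (4.26%) and 375 of the 6584 of WT replicate 2 (5.70%). The share was larger among mta peaks in 3' UTRs, of which 330 of 917 (36.0%) and 327 of 801 (40.8%) fell in kept regions. Among mta peaks in coding sequence (CDS) 19 of 755 (2.52%) and 19 of 935 (2.03%) did. Since 330 kept regions lie in 3' UTRs and 3 in coding sequence, this contrast follows largely from where kept regions lie. A single base shared with each mta list was enough to be kept, yet the overlaps were seldom that small. The median of the smaller overlap was 55 bp, and 1 region had less than 10 bp. That region, in the gene of the endoplasmic reticulum chaperone CRT3, shared 3 bp with mta replicate 2 and 92 bp with mta replicate 1. The next smallest overlaps were 11 bp, in NADK2 and AT3G50790. Just outside the rule lay regions of AT2G36680, AT5G22280 and AT5G42960, each of which met mta replicate 1 and missed the nearest peak of mta replicate 2 by 6, 7 and 7 nt. Of the 470 regions that met 1 mta list, 3 had a peak of the other within 10 nt and 16 within 100 nt.

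The 12 members with the highest mean score percentile over the 4 lists, taken within list and strand, all lay in 3' UTRs. AT1G01230 encodes an ORMDL protein, a family that restrains sphingolipid synthesis. Its region at chr1:99063-99224 scored 68 and 91 in mta replicates 1 and 2, against 143 and 50 in WT replicates 1 and 2. The peaks there were 59 and 58 bp wide in mta and 162 and 142 bp wide in WT. SDH8, a small subunit of succinate dehydrogenase in mitochondria, had a region at chr2:19042286-19042464 with scores of 79 and 96 in mta, against 95 and 50 in WT. Its peaks were 127 and 61 bp wide in mta, against 135 and 173 bp in WT. The mta libraries thus agreed less on the width of the SDH8 peak than on that of AT1G01230. UBC4, an enzyme that passes ubiquitin on to target proteins, had the widest region of the 12, at chr5:16538107-16538370, scoring 55 and 83 in mta and 144 and 50 in WT. Its mta peaks were 57 and 50 bp wide. WT replicate 1 had 2 peaks there, 1 of them 151 bp wide, and WT replicate 2 had 1 of 256 bp. Both mta peaks lay inside the 151-bp peak. Their mean midpoint lay 87.1 nt downstream of the WT mean, in which WT replicate 1 enters with the mean of its 2 peaks. NRPB10, a small subunit of RNA polymerase, scored 61 and 79 in mta and 152 and 43 in WT, with peaks of 81 and 73 bp against 181 and 128 bp. SPDS3, named a spermidine synthase, scored 72 and 103 in mta and 90 and 50 in WT. Median scores over whole lists were 34 and 52 in mta replicates 1 and 2, against 50 and 29 in WT replicates 1 and 2, so scores are not compared between lists. The other 7 were AT1G78140, a putative methyltransferase, AT1G55090, a carbon-nitrogen hydrolase, LCV2, AT1G18660, a RING finger protein, AT3G16220, AT4G09580, a SNARE-associated Golgi protein, and ATGP4 of the ubiquitin family.

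**Figure D1:**
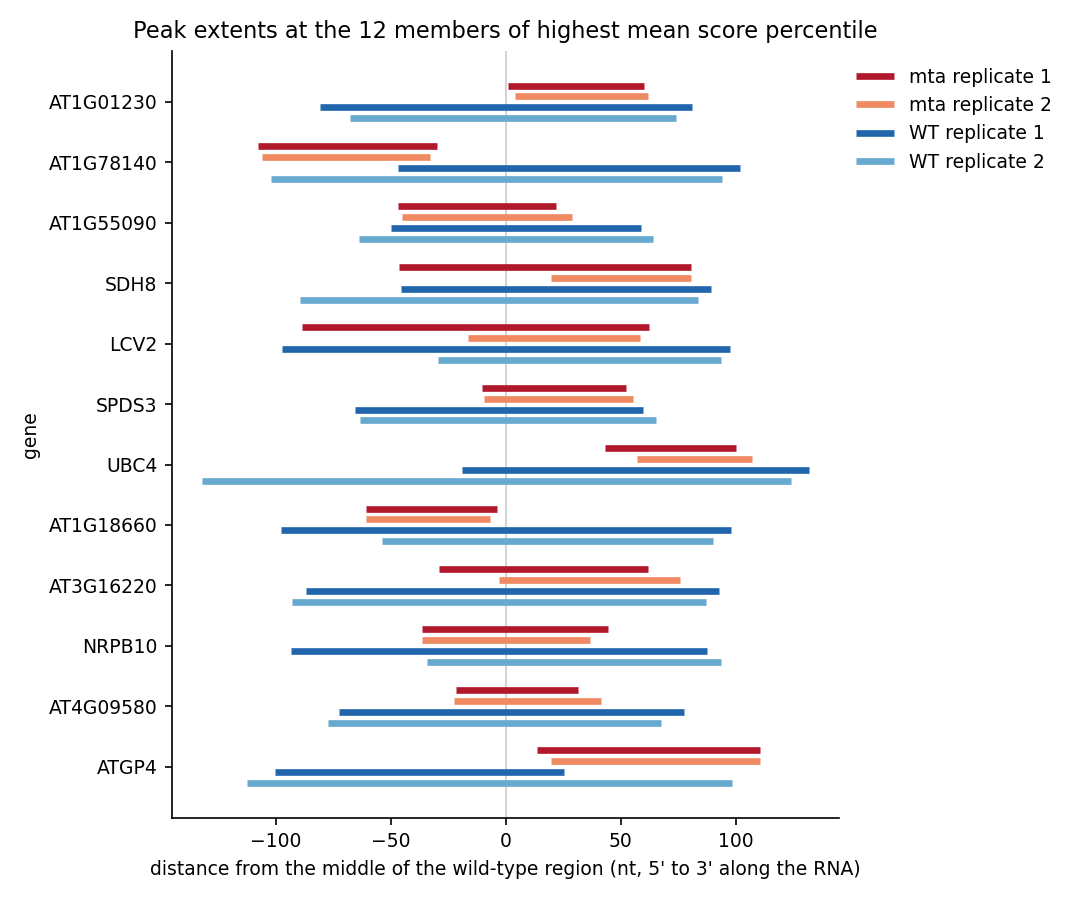
Extents of the peaks at the 12 members of highest mean score percentile, drawn as bars against the distance from the middle of the WT region (nt, 5' to 3' along the RNA), for mta replicates 1 and 2 above WT replicates 1 and 2. Each library is drawn with 1 peak per region, also where it has several. Bars of mta are mostly short and lie close to each other at places that differ between genes, as at AT1G01230 (59 and 58 bp, against 162 and 142 bp in WT).

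Peaks at kept regions were narrower in mta than in WT, as they were over the whole lists. Their median width was 65 and 58 bp in mta replicates 1 and 2, against 133 and 120.5 bp in WT replicates 1 and 2, a difference of -65.25 bp between genotype means (61.5 ± 4.95 bp in mta, 126.75 ± 8.84 bp in WT; SD, n = 2 each). Over all peaks the median width was 56 and 54 bp in mta, against 88 and 83 bp in WT. Neither set of medians overlapped between genotypes. Overlap, and so the choice of the regions, depends on width, so the difference is a description with no test. In 351 of 357 regions the peaks of both mta lists shared a base, in 341 a base was covered in all 4 libraries, and in 251 (70.3%) every mta peak lay wholly inside the WT region.

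The mta peaks mostly lay at nearly the same place in both mta libraries and often away from the middle of the WT peaks. Midpoints of mta replicates 1 and 2 were a median of 4 nt apart (quartiles 1.5 and 9 nt), and 277 of 357 pairs (77.6%) were within 10 nt. In 13 pairs they were more than 50 nt apart. The mean mta midpoint lay a median of 20 nt from the mean WT midpoint (quartiles 8.75 and 37.25 nt), with 98 regions (27.5%) within 10 nt. Midpoints of WT replicates 1 and 2 were 9.5 nt apart (quartiles 4 and 19 nt). The shift had no common direction, with a signed median of -2.5 nt and quartiles of -23.25 and 17.75 nt. The rule requires peaks of both mta lists on the same WT region, which limits how far apart they can lie. Narrow peaks have less room for their midpoints to differ, and the part of width in these distances was not tested. UBC4 and AT1G01230 had mta peaks in the downstream part of the region, and AT1G18660 (-42.25 nt) and AT1G78140 (-81 nt) in the upstream part.

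**Figure D2:**
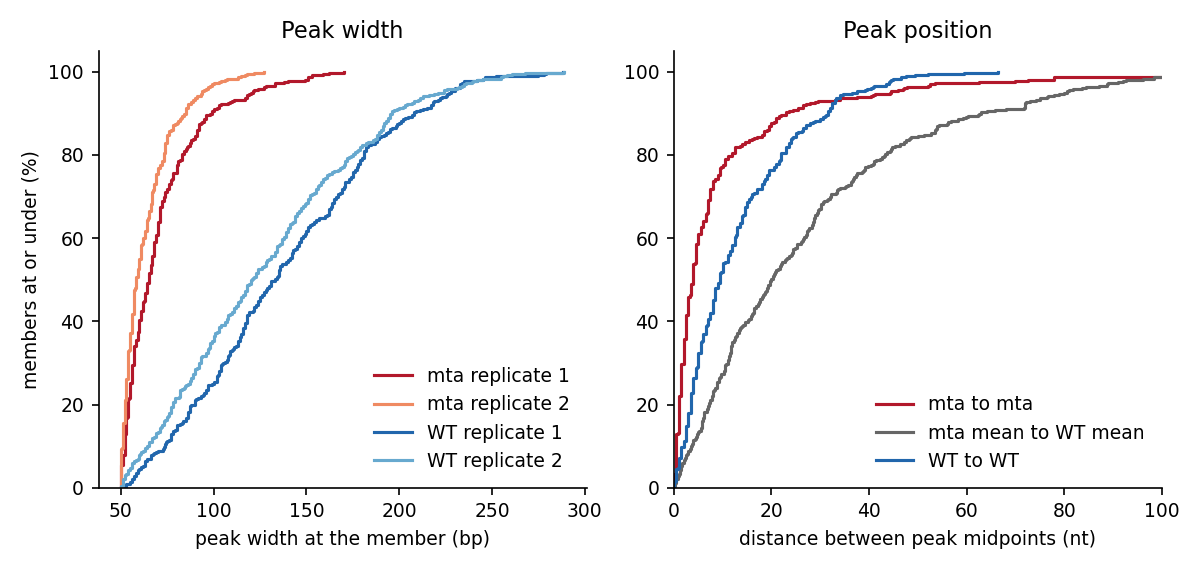
Cumulative share of the 357 members (%) by peak width in each library (left, bp) and by distance between peak midpoints (right, nt) within mta, between genotype means and within WT; a library with several peaks at a region enters with their mean, and the right axis ends at 100 nt. The mta curves of width lie left of both WT curves, with medians of 65 and 58 bp against 133 and 120.5 bp, and the distance between genotypes (median 20 nt) exceeds that within either genotype (4 nt in mta, 9.5 nt in WT).

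Kept regions lay almost wholly in 3' UTRs, as WT regions did in general. Placed by their midpoint on the transcript with the longest coding sequence, 330 of 357 (92.4%, interval 89.2 to 95.0%) lay in 3' UTRs, against 4260 of 4686 regions met by neither mta list (90.9%, 90.0 to 91.7%). In coding sequence lay 3 kept regions (0.840%), against 174 unmet regions (3.71%), a difference of -2.87 percentage points (95% Newcombe interval -3.68 to -1.19). None lay in a 5' UTR, which with 357 regions allows a share of up to 0.840% (3 counts of 357; the Clopper-Pearson upper limit is 1.03%). Within the 3' UTR the position was much the same in each class. Kept regions lay a median of 115 nt past the stop codon, those met by 1 mta list 120 nt and those met by neither 117 nt, in 3' UTRs of median length 274, 285 and 283 nt. Medians of distance to the transcript end were 151.5, 151 and 151 nt.

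Among the 27 members outside 3' UTRs, 10 lay outside the transcript that stands for their gene, 7 in noncoding genes, 5 in no annotated exon, 3 in coding sequence and 2 in exons of more than 1 gene. SAUR75, of a family of small auxin-responsive proteins, had its region in coding sequence at chr5:9839027-9839112, with scores of 59 and 131 in mta and 66 and 35 in WT. The central 31 nt of that region has a second copy in the genome, so its reads may belong elsewhere. AT4G16442, a membrane protein of unknown role, was the only gene with 2 members. Its coding-sequence region at chr4:9272117-9272196 scored 16 and 47 in mta, against 62 and 23 in WT. Its 3' UTR region at chr4:9271862-9271990 scored 30 and 64 in mta, against 76 and 36 in WT. Noncoding genes held 1.96% of kept and 0.555% of unmet regions, a difference of 1.41 points (0.37 to 3.44). Without regions whose central 31 nt have another copy, they held 4 of 346 kept regions (1.16%) and 20 of 4611 unmet regions (0.434%).

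The genes with kept regions had short coding sequences. The median CDS was 651 nt for the 333 kept regions placed in a coding transcript (quartiles 402 and 972 nt), 777 nt for the 449 met by 1 mta list (519 and 1155 nt) and 1143 nt for the 4438 met by neither (765 and 1671 nt). All 27444 nuclear protein-coding genes have a median CDS of 1047 nt, so kept regions lay in shorter genes and unmet regions in slightly longer ones. A CDS below 1077 nt, the median over all WT regions, was found for 79.9% of kept regions, 71.3% of those met by 1 list and 45.4% of unmet regions. Kept exceeded unmet regions by 34.5 percentage points (Newcombe interval 29.6 to 38.7). Transcripts were shorter too, with medians of 1148 nt for kept and 1701 nt for unmet regions, and had 5 and 7 exons. The median 3' UTR, given above, differed by 9 nt. The median 5' UTR was 167 nt for kept and 195 nt for unmet regions, so the contrast lay mostly in the coding part.

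Split into 5 classes of near-equal size by CDS length, the WT regions were kept in 15.2% of cases (160 of 1050) where the CDS had 78 to 621 nt, 7.51% (78 of 1039) at 624 to 918 nt, 4.57% (48 of 1050) at 921 to 1248 nt, 2.70% (28 of 1037) at 1251 to 1746 nt and 1.82% (19 of 1044) at 1749 nt or more. The regions met by each mta library, members included, fell in share in the same way. Replicate 1 met 26.0% of the regions in the class of shortest CDS and 3.45% in that of longest CDS, and replicate 2 met 19.7% and 3.54%. Over all 3' UTR peaks of a library, whatever region they fell in, the median CDS was 621 and 699 nt in mta, against 1131 and 1065 nt in WT (660 ± 55.2 and 1098 ± 46.7 nt; SD, n = 2 each). The genotypes did not overlap (exact two-sided permutation p = 0.333, the smallest possible), and the lists include the peaks that chose the members. Without peaks in members the 3' UTR medians were 621 and 771 nt in mta, against 1155 and 1095 nt in WT. Over all peaks placed in coding transcripts, members included, the contrast was smaller. Those medians were 771 and 921 nt in mta, against 1140 and 1068 nt in WT. The regions met by mta replicate 1 only had a median CDS of 687 nt and those met by mta replicate 2 only one of 915 nt, against 1143 nt for unmet regions.

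**Figure D3:**
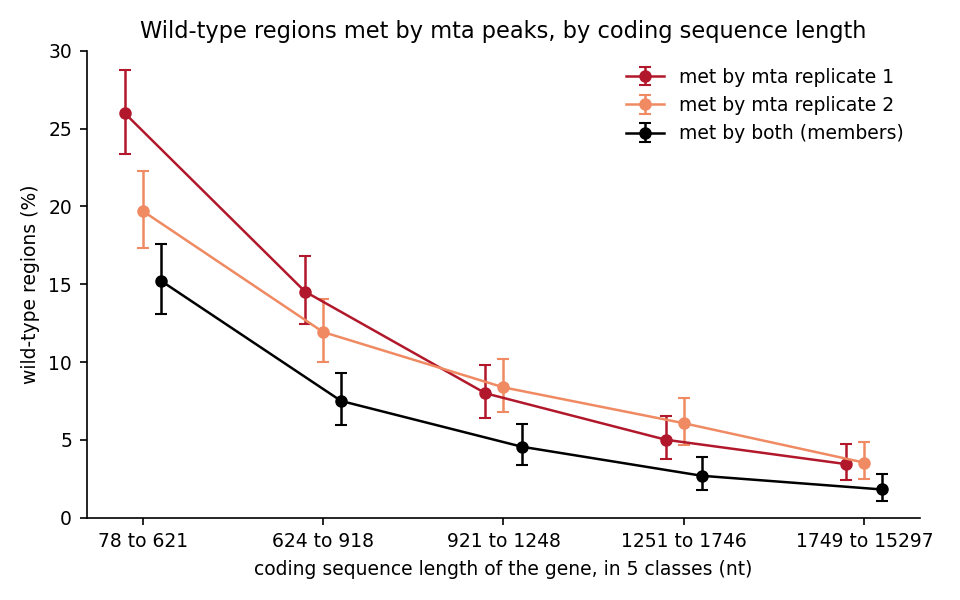
Share of WT regions (%) met by mta replicate 1, by mta replicate 2 and by both (members), in 5 classes of the CDS length of the gene (nt); points are shares and bars 95% Clopper-Pearson intervals over 1037 to 1050 regions each. All 3 series fall along the axis, members from 15.2% in the class of shortest CDS to 1.82% in that of longest CDS.

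Kept regions were also wider in WT, and the contrast by CDS length was present at each width. Their median width was 156 bp, against 145 bp for regions met by 1 mta list and 118 bp for unmet regions. Over 5 classes of WT regions from the narrowest to the widest, 2.54%, 4.36%, 4.79%, 7.18% and 13.1% were kept; a wide region has more bases that a peak can share. With 3 classes each of width and CDS length, 7.14% of the narrowest regions were kept where the CDS was shortest, 2.02% in the middle class and 0.792% where it was longest. For regions of middle width these shares were 9.24%, 3.85% and 2.03%, and for the widest regions 19.6%, 8.23% and 3.67%. Exon number separated kept regions too: over 4 classes from few to many exons, 9.84%, 7.15%, 5.00% and 2.80% were kept. The traits that follow separated them less. Over 5 classes of 3' UTR length, from short to long, 7.04%, 6.84%, 6.50%, 6.71% and 5.71% were kept. By distance past the stop codon the shares ran between 5.85% and 7.80% with no steady course. By score percentile in WT replicate 1, from low to high, 6.31%, 4.54%, 6.27%, 5.47% and 9.55% were kept, and in WT replicate 2 6.06%, 4.58%, 5.02%, 4.89% and 12.2%, so that the class of highest score stood above the other 4 in both WT lists.

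**Figure D4:**
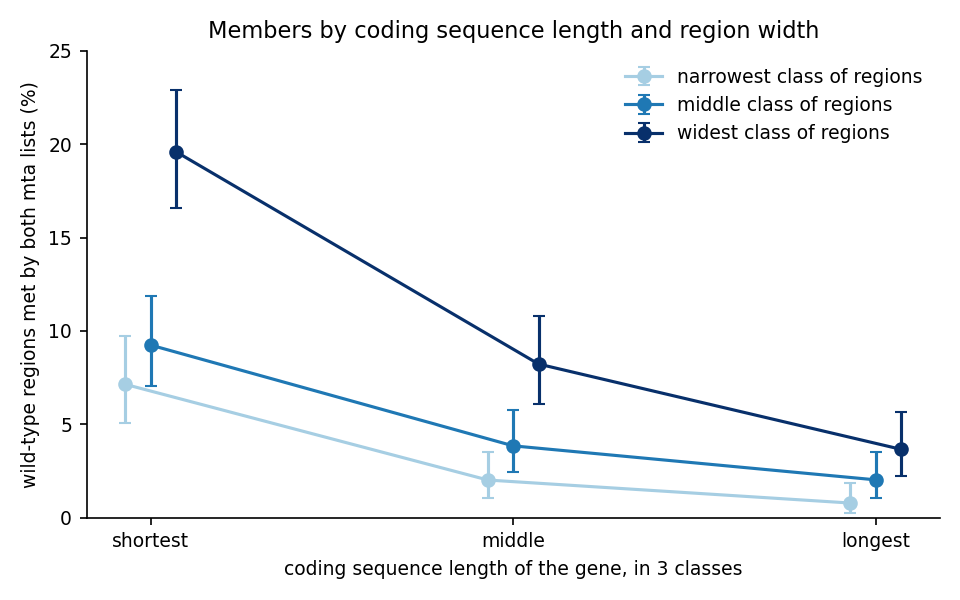
Share of WT regions met by both mta lists (%) in 3 classes of CDS length, drawn for the narrowest, middle and widest of 3 classes of region width; bars are 95% Clopper-Pearson intervals. Each line falls from the shortest to the longest CDS, for the widest regions from 19.6% to 3.67%.

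Many kept regions belonged to genes of small proteins. The gene lists below are described by counts beside the 6.77% over all genes with a WT region, and no list was tested. Genes of the mitochondrial respiratory chain held a member in 10 of 52 cases (19.2%, interval 9.63 to 32.5%), and the median CDS of those 52 was 369 nt. Besides SDH8, SDH5, another subunit of succinate dehydrogenase, scored 28 and 47 in mta, against 118 and 25 in WT, at chr1:17395529-17395763. FRO1, a subunit of complex I, scored 41 and 32 in mta, against 75 and 50 in WT, at chr5:26959364-26959571. By percentile within list and strand, FRO1 stood at 69.9 and 8.51 in mta and SDH5 at 31.7 and 33.5, so the mta libraries ranked SDH5 alike and FRO1 far apart. AT5G52840 and AT2G47690, both annotated as NADH-ubiquinone oxidoreductase-like, scored 34 and 64, and 31 and 64 in mta, against 87 and 35, and 59 and 29 in WT. The copper chaperone AT1G53030 (COX17), which supplies cytochrome c oxidase, stood on the chaperone list and scored 72 and 66 in mta, against 117 and 50 in WT. That chaperone list held 6 genes with members of 63 (9.52%).

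Ribosomal protein genes held a member in 7 of 39 cases (17.9%, interval 7.54 to 33.5%; median CDS 429 nt). RPL9 scored 25 and 22 in mta, against 75 and 18 in WT, and AT2G36170, encoding protein L40 of the large subunit, scored 53 and 52 in mta, against 31 and 25 in WT. Proteasome genes did so in 4 of 23 cases (17.4%, 4.95 to 38.8%). PAB1, an alpha subunit of the core particle, scored 77 and 134 in mta, against 69 and 35 in WT, and the beta subunits PBE1 and PBC2 scored 71 and 100, and 33 and 52 in mta, against 102 and 18, and 59 and 58 in WT. Within list and strand, PAB1 stood at percentiles of 98.3 and 99.7 in mta, PBE1 at 97.3 and 96.4, and PBC2 at 49.0 and 53.4. Genes of thioredoxin and redox enzymes held members in 11 of 72 cases (15.3%, 7.88 to 25.7%; median CDS 772.5 nt). The lists overlap: 3 of these 11, FRO1, AT5G52840 and AT2G47690, are also among the 10 of the respiratory chain, and AT3G21610 is annotated as an acid phosphatase or haloperoxidase. GRX4, a glutaredoxin, scored 79 and 110 in mta, against 69 and 35 in WT. TAPX, the ascorbate peroxidase of thylakoids, which removes hydrogen peroxide, scored 41 and 61 in mta, against 81 and 25 in WT. Vesicle traffic genes held members in 8 of 92 cases (8.70%), among them the SNARE protein VAMP727, at 42 and 65 in mta and 117 and 43 in WT, and the small GTPase RAB1A, at 48 and 79 in mta and 69 and 29 in WT.

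Other lists held a smaller share. Kinases of all kinds held a member in 7 of 279 cases (2.51%, interval 1.01 to 5.10%), and their median CDS was 1506 nt. The list takes in enzymes such as NADK2, which makes NADP in chloroplasts and has a CDS of 3000 nt, with scores of 41 and 52 in mta and 70 and 36 in WT. VTE5, the phytol kinase of vitamin E synthesis, scored 30 and 48 in mta, against 79 and 39 in WT. Genes whose product name holds a word for a transcription factor class had a member in 2 of 105 cases (1.90%, 0.232 to 6.71%), the clock factor RVE8 and the basic helix-loop-helix protein AT3G57800. That list goes by the wording of product names and misses transcription factors, so the share is not that of all of them. The members LCL1, PIF4, AGL20 and GLK2, named after the members were seen, are transcription factors that it leaves out. Transporters did in 5 of 155 (3.23%) and RING, U-box and F-box proteins in 4 of 111 (3.60%). The intervals of kinases and of the transcription factor list end at 5.10% and 6.71%, below 6.77%, and that of transporters at 7.37%. Those of the respiratory chain, ribosomal protein and redox lists begin above it, at 9.63%, 7.54% and 7.88%. Among the 5 CDS classes, that of the respiratory chain and ribosomal protein medians had 15.2% of WT regions kept, inside both intervals. The class of the redox median had 7.51%, just below its interval. For kinases the class had 2.70% and for the transcription factor list (median CDS 1065 nt) 4.57%, both inside their intervals. The part of CDS length in these list shares was not tested. The lists overlap and were chosen with earlier results known, so these positions are a description and no test. Of the 4 clock genes of the CCA1, LHY and REVEILLE group with a WT region, RVE8 and LCL1, both activators of evening genes, held a member. RVE8 scored 35 and 35 in mta, against 55 and 23 in WT, at chr3:2948731-2948848. Within list and strand its equal mta scores stood at percentiles of 54.1 and 12.7. LCL1 scored 49 and 64 in mta, against 114 and 50 in WT, at chr5:651704-651942. No writer, reader or eraser of m6A held a member, and 1 writer and 1 reader had a WT region at all.

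Of the 349 genes with a member, 15 had another WT region. Of these 15 other regions 2 met any mta peak (13.3%, interval 1.66 to 40.5%), near the 15.0% over all WT regions (827 of 5513). The 2 were in RVE8, met by 1 mta list, and in AT4G16442, whose 2 regions are both members. In AT3G45050 the member at chr3:16477139-16477379 scored 103 and 42 in WT. The other region of that 3' UTR, at chr3:16477382-16477520, scored 143 and 58 in WT and met neither mta list. EIF4A-III, a core protein of the exon junction complex, had its member at chr3:6866466-6866581 with WT scores of 82 and 50, and an unmet region 172 nt upstream along the transcript with WT scores of 103 and 25. In PK3 the kept region scored 144 and 50 in WT and the unmet one, 148 nt upstream, 56 and 35. In AT1G10865, a cytochrome c oxidase assembly factor, the kept region scored 63 and 31 in WT and the unmet one, 90 nt upstream, 75 and 29. By mean WT percentile, the lower-ranked region of the pair was kept in AT3G45050 and AT1G10865 and the higher-ranked one in EIF4A-III and PK3. Over the 15 genes, the other region had the lower mean WT percentile in 8 and was narrower in 9. The member in AT3G56210, one of these 15 genes, has central 31 nt that occur 3 times in the genome. The genes with members also held mta peaks that met no WT peak, 46 in mta replicate 1 and 30 in mta replicate 2. Of these, 36 (78.3%) and 26 (86.7%) had their midpoint in coding sequence. Over the whole mta lists coding sequence held 39.0% and 44.7% of peaks. The share over all mta peaks that met no WT peak was not counted, so no trait of members' genes is read from these counts.

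Kept regions carried RRACH near their middle less often than the other WT regions. Within 25 nt of the midpoint, 154 of 357 kept regions had a match (43.1%, interval 37.9 to 48.5%), against 247 of 470 regions met by 1 mta list (52.6%) and 2617 of 4686 unmet regions (55.8%, 54.4 to 57.3%). Kept minus unmet was -12.7 percentage points (Newcombe interval -17.9 to -7.33). Tiles of 51 nt cut from all annotated 3' UTRs held RRACH in 43.3% of cases, and those from genes with a member in 44.4%, both inside the interval of the kept regions. On the opposite strand of the same windows the share was 63.0% in kept and 55.6% in unmet regions. The difference shrank with the window, to -4.93 points within 50 nt (73.4%, interval 68.5 to 77.9%, against 78.3%; -9.88 to -0.447) and -1.15 points within 100 nt (91.3% against 92.5%; -4.60 to 1.47). Tiles of 101 nt held RRACH in 68.2% of cases, just below the interval of kept regions within 50 nt, and in 70.4% for genes with a member. For DRACH, which also allows U in its first place, kept minus unmet was -8.64 points within 25 nt (-14.0 to -3.53). Within 50 nt it was -1.57 points (-5.48 to 1.58). Against regions met by 1 mta list the DRACH difference within 25 nt was -3.33 points (-9.99 to 3.31). By distance, unmet regions had their highest shares of RRACH in the bins beside the midpoint, and kept regions had no such rise.

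**Figure D5:**
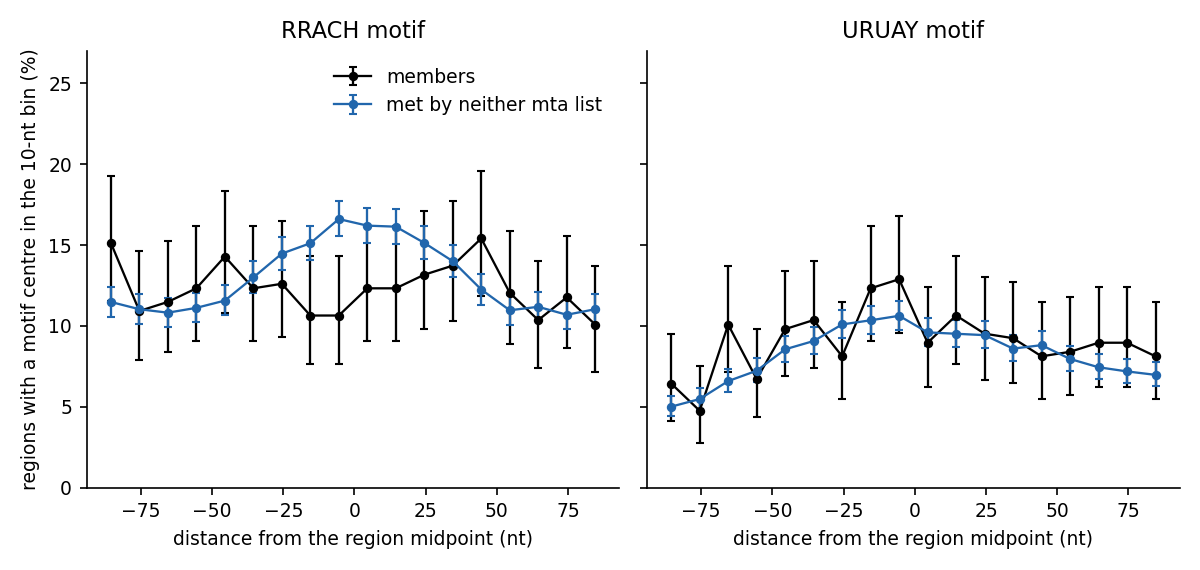
Share of regions (%) with the centre of an RRACH (left) or URUAY (right) match in bins of 10 nt along the distance from the region midpoint (nt), for members and for regions met by neither mta list; bars are 95% Clopper-Pearson intervals. For RRACH the unmet regions reach 16.6% in the bin before the midpoint, where members stand at 10.6%; beyond 50 nt the members lie on both sides of the unmet regions.

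The share of RRACH was lower in kept than in unmet regions in each of 3 classes of width and 3 of CDS length, but not always beyond counting error. Over the 3 classes of width, from narrow to wide, it was 48.1%, 44.9% and 40.0% in kept regions, against 61.0%, 57.0% and 48.5% in unmet ones. Over the 3 classes of CDS length, from short to long, it was 40.7%, 46.9% and 44.4% in kept regions, against 54.6%, 56.0% and 56.8% in unmet ones. In 3 of these 6 classes the interval of the kept share held the unmet share: the narrowest regions (34.3 to 62.2%), the middle CDS class (35.7 to 58.3%) and the longest CDS class (27.9 to 61.9%, 36 kept regions). Regions met by 1 mta list differed between the lists. Those met by mta replicate 1 only had RRACH in 139 of 277 cases (50.2%, 44.1 to 56.2%) and those met by mta replicate 2 only in 108 of 193 (56.0%, 48.6 to 63.1%), against 55.8% of unmet regions. Both intervals hold the unmet share, so the lower share was not detectable in regions met by either mta list alone. Centred on the mta midpoint in place of the region midpoint, 46.8% of kept regions had RRACH within 25 nt, against 44.5% centred on the WT midpoint. When every list was shortened to the 1934 peaks of the shortest, which left 91 kept regions, the difference was -6.75 points with an interval that includes 0 (-17.3 to 3.65).

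For URUAY the interval of the difference between kept and unmet regions included 0. Within 25 nt it was found in 40.3% of kept and 38.1% of unmet regions (difference 2.27 points, -2.89 to 7.61), against 30.5% of all 3' UTR tiles of 51 nt. On the opposite strand of the same windows it was found in 26.1% and 28.6%. Within 50 nt the shares were 63.0% and 60.1%, against 50.6% of tiles of 101 nt. In these wider windows 160 kept regions had both motifs, 102 RRACH alone, 65 URUAY alone and 30 neither. AAUAAA, the polyadenylation signal best known from animals, lay within 50 nt of 16.2% of kept and 11.1% of unmet regions (difference 5.15 points, 1.56 to 9.42), against 10.1% of tiles. UGUA, which UGUAC and UGUAU contain, was found in 73.1% and 70.3% (difference 2.81 points, -2.18 to 7.35). Windows of 101 nt held slightly more U in kept regions (median 39.6%, against 37.6% in unmet regions) and less A (28.7%, against 30.7%). Of all 1024 pentamers, counted within 25 nt of the midpoint, AUAAU differed most upward, at 19.6% of kept and 10.6% of unmet regions, and UGGAA most downward, at 3.92% and 9.05%; both were singled out by these values.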

How the data were processed

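The authors deposited 1 peak list for each of the 4 bound libraries, with a start, an end, a strand and a whole-number score per peak, and that score is used here only to rank peaks within a list and strand and at 1 cutoff. The submitters' processing notes name STAR 2.4.0, TAIR10 and MACS2; the version of MACS2, its control and its threshold were not given in these sources. Peak names show that each library and strand was called apart. The lists hold no summits or counts, so midpoints were used and the precision is that of the numbers of peaks.

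Positions were placed on RefSeq TAIR10.1, where no peak passed a chromosome end and 97.5% of the 19583 midpoints lay in an exon of their strand. Shares carry Clopper-Pearson and differences Newcombe intervals at 95%, over regions; genotypes were compared by exact permutation only for CDS length. The test planned for peak width is not reported, since width enters the choice of members. The region, placement, motif and interval steps were tested on simulated data. Software was Python 3.11.15, numpy 2.4.6, scipy 1.17.1 and matplotlib 3.10.9. Motifs were searched on both strands within 25, 50 and 100 nt. Named genes follow a rule: the 12 members of highest mean percentile, members outside 3' UTRs, genes with 2 members, up to 5 per gene list, overlaps nearest the limit, and genes with another, unmet region. Members and lists were chosen with earlier results of these data known. Alternatives covered overlap, score, list length, strand, gene model, window and each library.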

Additional observations from a re-analysis of the deposited data

How the results depend on the processing

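The depth of the libraries is unknown, so the absence of an mta peak says only that none was called. Of the 103 values recomputed under the alternatives, 66 stayed within the limit set for them and 35 did not. The other 2 were RRACH differences whose interval came to include 0. Only the width and RRACH differences can change direction, and neither did. The number of kept regions was 10 with scores of at least 50 and 91 with every list shortened to the shortest, and 400 to 634 with each library left out. With these 10 and 91 regions the 3' UTR share was 100% and 96.7%, the median distance past the stop codon 94 and 105 nt, the midpoint offset 43.5 and 29.25 nt, and the URUAY share within 50 nt 90.0% and 74.7%. The RRACH share was 83.5% in the 91. The median CDS was 507 and 805.5 nt, against 1033.5 and 1140 nt for unmet regions. The RRACH difference within 25 nt was -21.4 points (-44.9 to 7.67) and -6.75 points (-17.3 to 3.65), so that neither interval excludes 0. In the 91 regions' genes 0% of 2 other regions met an mta peak. Leaving out each library in turn gave 3' UTR shares of 86.9 to 92.9%, distances past the stop codon of 115 to 119 nt, offsets of 17.5 to 21.4 nt, a median CDS of 639 to 768 nt (against 1119 to 1195.5 nt for unmet regions), RRACH differences of -12.6 to -7.89 points, RRACH and URUAY shares within 50 nt of 71.75 to 75.3% and 59.0 to 65.1%, 6.25 to 23.5% of other regions met, and width differences of -66.5 to -52 bp. With the longest transcript standing for the gene, the distance past the stop codon was 119 nt. RRACH stood at 43.1% within 25 nt and 91.3% within 100 nt, URUAY at 40.3% and 81.0%, and DRACH within 50 nt at 87.7%. Single pairs of libraries gave offsets of 22, 23.5 and 22.5 nt, and 20 nt for mta replicate 1 against WT replicate 2. The cause of these changes was not tested, other than fewer peaks in the shortened lists and other windows by construction. The results on CDS length and on the RRACH difference were added after seeing the data. With the replicate number as a block, the width difference stayed at -65.25 bp; the labels do not pair same-numbered libraries, and their width deviations over kept regions had a correlation of -0.018.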
